A study of Mus musculus with 8 samples.

Results

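The lymphoid chemokines and lymphotoxins examined here were the chemokine genes *Ccl19*, *Ccl21a*, *Ccl21b*, *Ccl21c* and *Cxcl13*, the chemokine receptor genes *Ccr7* and *Blr1* (the name the arrays use for *Cxcr5*), the lymphotoxin genes *Lta* and *Ltb*, and the receptor gene *Ltbr*. These 10 genes were taken by name from the 21597 gene symbols on the arrays, with earlier results of these data known. Probes under these names were found for 8 of the 10 genes, as 9 probes on 18 spots of each array. All 8 passed the signal filter (red signal of at least 25 on at least 4 of 8 arrays), as did 18505 of the 21597 genes. *Ccl21a* and *Ccl21c* had no probe under their own names, and their transcripts are listed with the *Ccl21b* probe.

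Pancreas RNA was measured from 8 female NOD mice, 12 weeks old, a strain that develops autoimmune diabetes. Each mouse was labeled red (Cy5) on its own two-color array, together with green (Cy3) RNA from one pool of 8 age-matched NOD.B10 mice, which carry another H2 haplotype on the NOD background and do not become diabetic. A positive log2 ratio means more signal in the NOD mouse than in the pool. The pool is 1 sample measured 8 times, so the spread between ratios holds differences between NOD mice and array noise, and holds no differences between NOD.B10 mice. The dyes were never exchanged, so a dye effect at a probe and a strain difference cannot be told apart. *Lta* and *Ltb* lie in the H2 region of chromosome 17, where the 2 strains differ in sequence, so for these genes a difference in hybridization and a difference in RNA cannot be told apart either. Whole pancreas was used, so more cells of a type and more RNA per cell cannot be told apart at any gene.

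In lymph nodes and spleen, CCL19 and CCL21 are made by stromal cells and draw T-cells and dendritic cells that carry CCR7, and CXCL13 draws B-cells that carry CXCR5 into follicles. Lymphotoxin made by lymphocytes, a membrane complex of LTα and LTβ, binds the lymphotoxin β receptor on stromal cells, which signals through the alternative NF-κB pathway (NIK, IKKα, RelB and p52) and induces these chemokines. The same circuit operates in tertiary lymphoid structures, the lymphoid aggregates that form in chronically inflamed tissues and that are known in the inflamed islets of NOD mice.

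The sequences just upstream of *Ltb*, *Cxcl13* and *Ccl19* are shown because these are the 3 members with the highest mean ratios and because NF-κB is the textbook route of the pathway. Each is the 250 bases before the transcription start in RefSeq (mouse build GRCm38.p6, 5′ to 3′ on the gene's strand), with motif matches in capitals. *Ltb* is on the plus strand at chr17:35194257-35194506, *Cxcl13* on the plus strand at chr5:95956689-95956938 and *Ccl19* on the minus strand at chr4:42756366-42756615.
Ltb: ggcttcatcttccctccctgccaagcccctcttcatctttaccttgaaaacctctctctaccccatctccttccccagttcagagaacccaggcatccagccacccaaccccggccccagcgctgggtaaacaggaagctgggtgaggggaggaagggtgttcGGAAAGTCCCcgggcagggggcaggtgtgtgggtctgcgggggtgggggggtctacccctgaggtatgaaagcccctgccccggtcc
Cxcl13: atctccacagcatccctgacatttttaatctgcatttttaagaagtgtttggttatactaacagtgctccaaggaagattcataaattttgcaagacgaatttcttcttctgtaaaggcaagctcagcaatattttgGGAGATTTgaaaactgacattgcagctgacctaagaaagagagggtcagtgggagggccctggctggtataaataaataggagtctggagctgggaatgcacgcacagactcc
Ccl19: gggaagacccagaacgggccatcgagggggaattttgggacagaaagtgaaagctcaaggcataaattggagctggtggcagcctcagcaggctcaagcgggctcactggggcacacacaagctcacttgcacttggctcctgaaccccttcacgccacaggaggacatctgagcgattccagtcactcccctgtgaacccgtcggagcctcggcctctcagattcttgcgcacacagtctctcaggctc
Letter patterns of 2 kinds were searched on both strands, the classical κB consensus of 10 letters and the RelB-type pattern GGAGANTT of 8 letters. The *Ltb* window holds 1 κB match, which starts 87 bases before the transcription start, and the *Cxcl13* window holds 1 RelB-type match, 113 bases before it. The *Ccl19* window holds neither pattern. Among all 32851 promoter windows of the same length, 7.25% hold a κB match and 3.99% a RelB-type match. A match is a description of letters and not a measured site, and the windows of *Lta*, *Ltbr*, *Ccl21a* and *Ccl21b* also hold neither pattern.

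Between 21.6% and 35.3% of the spots of an array had red signal well above background, and between 57.6% and 60.7% had such green signal. Where a spot's signal could not be told from background, the software put a stand-in value taken from the background noise in its place, for 42.9% to 54.0% of red and 18.2% to 23.4% of green signals. The arrays came as 2 slides of 4 (replicates 1 to 4 and 5 to 8). The tissue label was checked with 5 acinar genes and 5 islet genes. Red signal of all 5 acinar genes was well above background on at least 4 arrays, as was that of all 5 islet genes, and the summed red signal was 1409930 to 2605560 for acinar and 49858 to 303503 for islet genes. A probe was called where it differed 2-fold or more with an adjusted p below 0.01 in limma's one-sample moderated test, with Benjamini-Hochberg adjustment over all 28105 probes tested. By this rule 87 probes were higher and 397 lower in NOD, and when signals were centered on the median instead, 5976 were higher and 1272 lower. The ratio of processed signals gave 3470 higher and 690 lower, a normexp background correction with loess normalization 48 and 19, and a filter for red well above background on at least 4 arrays 91 and 42, so the balance of calls rests on the processing. Median centering moved the median ratio of all probes from -0.09 to 0.09 on the log2 scale.

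*Ltb* was the one member that was called. The 3 genes with the highest mean ratios were *Ltb*, *Ccl19* and *Cxcl13*, whereas *Ccl21b* and *Lta* had means below 0 and *Ltbr* was near 0. The median of the mean log2 ratios was 0.29 over the 8 members and -0.08 over all 18505 genes. Of the 8 members, 1 was called higher, against a background of 0.389% of the genes tested, and 0 were called lower, against 1.29%. At an unadjusted p under 0.05, 4 of 8 members passed in limma (*Ltb*, *Ccl19*, *Cxcl13* and *Lta*), against a background of 10.8% of genes higher and 25% lower. At an adjusted p under 0.05 and any fold, 2 members were higher (background 6.97%), and *Lta* had a mean below 0 (background of lower genes 14.3%). *Lta* had no red signal well above background and a mean above 0 with median-centered signals. The log2 ratio was above 0 in all 8 mice for 2 of 8 members (background 5.04%) and below 0 in all 8 mice for none (background 10%).

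**Figure D1:**
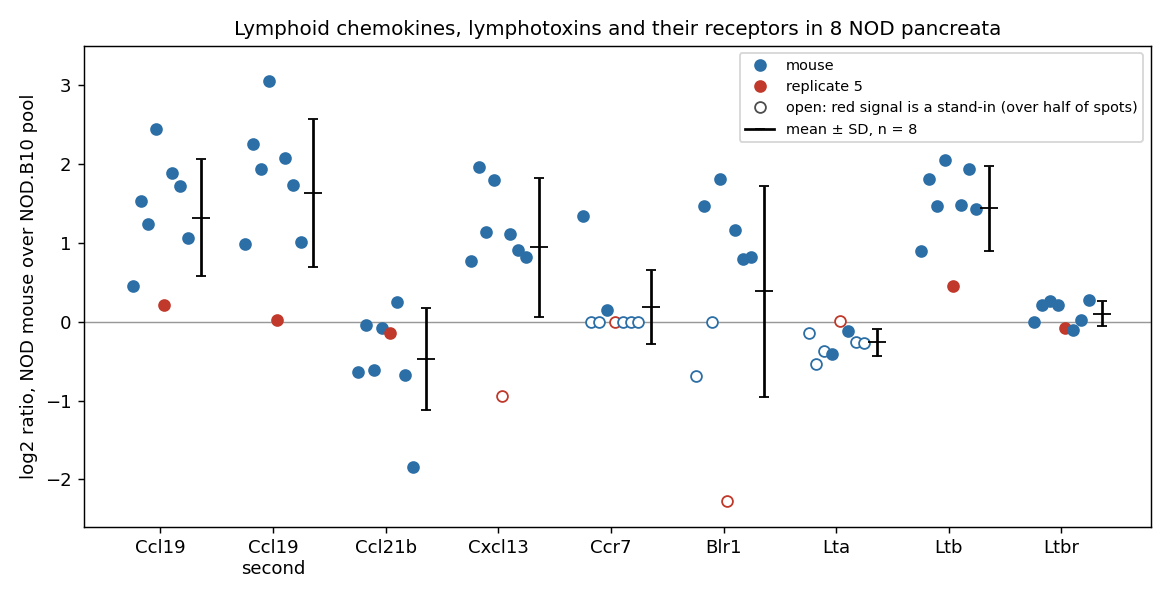
Log2 ratio of each NOD mouse over the NOD.B10 pool (y axis) for the 9 probes of the members (x axis). Each point is 1 mouse, red marks replicate 5, open points have stand-in red values, and bars show the mean ± SD (n = 8). The points of *Ltb* and of both *Ccl19* probes all sit above 0, and those of *Ccr7* sit mostly at 0.

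*Ccl19* encodes a ligand of CCR7 made by the stroma of T-cell zones. Its brighter probe is at chr4:42776371-42776430 (mm8, minus strand). Its red signal was lowest at 629.7, with a median of 1442 and a highest value of 3065, whereas the green signal of the pool ranged from 378 to 685 with a median of 543. Red was well above background on 8 of 8 arrays. The log2 ratio was lowest at 0.22 in replicate 5 and 0.45 in replicate 1, had a median of 1.39, and was highest at 2.44 in replicate 4. All 8 mice were above the pool, and the mean was 1.32 ± 0.74 (SD, n = 8), a 2.50-fold difference. With a limma adjusted p of 0.0109 *Ccl19* fell just short of the call, and the exact two-sided sign-flip test gave p = 0.0078, the smallest that 8 mice allow. A second probe lies at chr4:42776291-42776350. Its mean was 1.63 ± 0.93 (SD, n = 8), with a range of 0.03 to 3.06 and a limma adjusted p of 0.0118. Both probes ranked replicate 5 lowest and replicate 4 highest, and their ratios correlated across mice with r = 0.93 (n = 8, exact permutation p = 0.0011). Without replicate 5, both probes passed the call (1.48, adjusted p = 0.0095, and 1.86, adjusted p = 0.0072, limma). With normexp and loess the means were 0.95 (adjusted p = 0.0102) and 0.65 (adjusted p = 0.106), so the second probe no longer passed at 0.05.

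*Cxcl13* encodes the chemokine of B-cell follicles. Its probe is at chr5:96201144-96201203 (mm8, plus strand) and was dimmer, with red signals from 36.1 to 328 (median 183) and green signals from 66.7 to 116 (median 81.1). Red was well above background on 5 of 8 arrays and green on all 8. The log2 ratio was -0.94 in replicate 5, where the red value was a stand-in, had a median of 1.02 and was highest at 1.96 in replicate 2. The other 7 mice were above the pool. The mean of 0.95 ± 0.88 (SD, n = 8) did not pass the test (limma adjusted p = 0.0614, exact sign-flip p = 0.0391). Without replicate 5 the mean was 1.22 and the limma adjusted p 0.0074, which passed the call. With 8 mice it was 0.25 with normexp and loess (adjusted p = 0.0375) and 1.39 with median-centered signals (adjusted p = 0.00023). The adjusted p was 0.0235 with the ratio of processed signals and 0.0405 with slide as a covariate. It was 0.0857 with the plain statistic, 0.0776 with no filter and up to 0.133 with another mouse left out.

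The CCL21 chemokines are the other ligands of CCR7 and are encoded by near-identical gene copies. The 1 probe named *Ccl21b* is at chr4:42794902-42794961 (mm8, minus strand) and is listed with RefSeq transcripts of *Ccl21a*, *Ccl21b* and *Ccl21c*, so its signal cannot be assigned to a copy. How alike the copies are is shown by bases 54 to 224 of the coding sequence, counted from 1 at its start, in the GENCODE transcripts of *Ccl21a* and *Ccl21b*, with the bases that differ in capitals.
Ccl21a: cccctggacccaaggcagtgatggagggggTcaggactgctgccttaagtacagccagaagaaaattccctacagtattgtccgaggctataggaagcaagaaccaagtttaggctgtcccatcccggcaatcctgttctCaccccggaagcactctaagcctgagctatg
Ccl21b: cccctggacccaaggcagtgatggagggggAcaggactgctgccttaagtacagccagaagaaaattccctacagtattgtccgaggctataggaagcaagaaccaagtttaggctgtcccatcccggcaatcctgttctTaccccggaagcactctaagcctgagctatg
Over the full 402 bases of coding sequence the 2 copies differ at 2 positions (T84A and C194T, *Ccl21a* base first), an identity of 99.5%. The red signal of this probe ranged from 86.4 to 650.2 (median 322) and the green from 310.3 to 547 (median 429). Red was well above background on 5 arrays and green on 8. The log2 ratio was lowest at -1.84 in replicate 8, had a median of -0.37 and was highest at 0.25 in replicate 6. The mean was -0.47 ± 0.65 (SD, n = 8), with 7 of 8 mice below 0, and did not pass the test (limma adjusted p = 0.174, exact sign-flip p = 0.0625). With median-centered signals the mean was -0.96 (adjusted p = 0.0064), still short of 2-fold. The mean was -0.28 without replicate 8 (adjusted p = 0.199) and -0.18 with normexp and loess (adjusted p = 0.0706). The CCR7 ligands thus had means on opposite sides of 0, with *Ccl19* above the *Ccl21b* probe in all 8 mice.

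**Figure D2:**
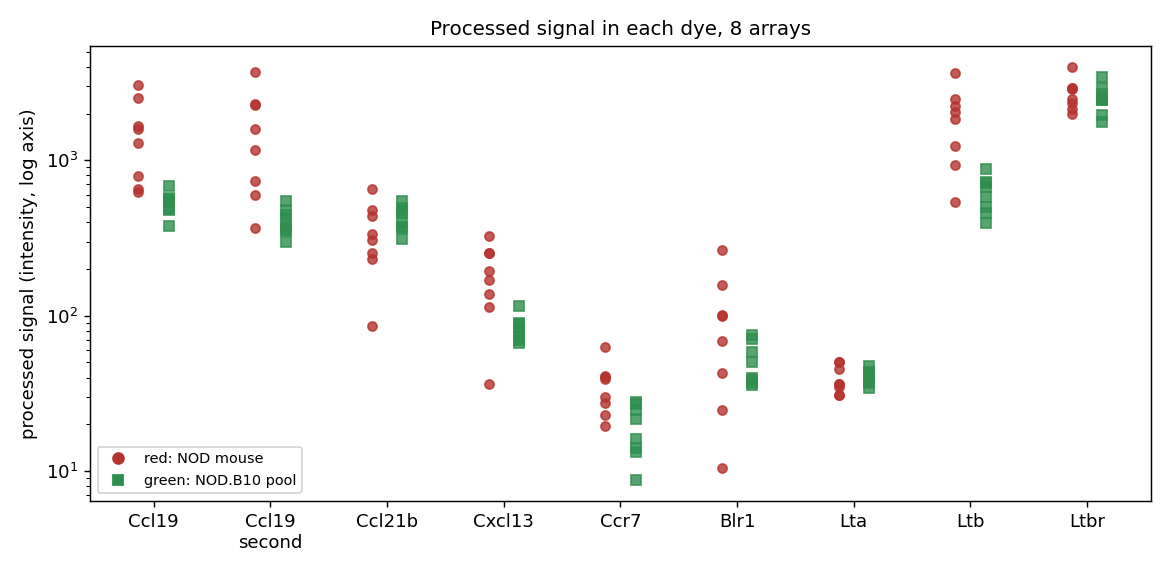
Processed signal (y axis, log scale, intensity) of each of the 9 probes (x axis) on the 8 arrays, with red circles for the NOD mice and green squares for the NOD.B10 pool. *Ltb*, *Ltbr* and both *Ccl19* probes have medians of 396 or more in both dyes, and the highest value of *Ccr7* and *Lta* in either dye is 63.1.

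*Ccr7* and *Blr1* encode the receptors on the lymphocytes that these chemokines draw, and both probes were near background in red signal. *Ccr7* (chr11:98960289-98960314 as listed, mm8, minus strand) had red signals of 19.5 to 63.1 that were well above background on 0 of 8 arrays and stand-in values on 6. Its log2 ratio was listed as 0 in 6 mice, 0.15 in replicate 4 and 1.34 in replicate 1, with a mean of 0.19 (limma adjusted p = 0.463). With median-centered signals the mean was 1.82 (adjusted p = 1.1e-05), with the ratio of processed signals 0.89 (adjusted p = 0.0083) and with normexp and loess -0.0047, so the value of *Ccr7* rests on the processing. *Blr1* (chr9:44262983-44263042, mm8, minus strand) had red signals of 10.5 to 264, well above background on 1 array, and stand-in values on 3. Its log2 ratio was lowest at -2.28 in replicate 5, had a median of 0.81 and was highest at 1.82 in replicate 4. With 5 mice above 0, 1 listed at 0 and 2 below 0, the mean was 0.39 ± 1.34 (SD, n = 8, limma adjusted p = 0.574). The value of replicate 5 came from a stand-in red value, and without that mouse the mean was 0.77 (adjusted p = 0.141). With median-centered signals the mean was 1.51 (adjusted p = 0.00018), and with normexp and loess 0.12 (adjusted p = 0.0567).

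*Ltb* encodes LTβ, the subunit that anchors the lymphotoxin complex to the lymphocyte membrane. Its probe is at chr17:34804204-34804263 (mm8, plus strand). The red signal ranged from 541 to 3636 (median 1948) and the green from 397 to 875 (median 629), and both were well above background on 8 of 8 arrays. The log2 ratio was lowest at 0.45 in replicate 5 and 0.90 in replicate 1, had a median of 1.47 and was highest at 2.05 in replicate 4. All 8 mice were above the pool. *Ltb* was higher in NOD, at 1.44 ± 0.54 on average (SD, n = 8), a 2.72-fold difference (limma adjusted p = 0.0027, exact sign-flip p = 0.0078). It remained called with any 1 mouse left out (means of 1.35 to 1.58, adjusted p up to 0.0095), and with normexp background correction and loess it was not called (0.77, adjusted p = 0.0193). The red signal varied with a coefficient of variation of 52.4% between mice and the green signal of the shared pool with 26.0% between arrays.

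*Lta* encodes LTα, the other subunit of the complex and of the secreted homotrimer, and its red signal was at background. Its probe is at chr17:34811382-34811441 (mm8, minus strand) and is spotted 10 times on each array, 80 spots in all. Red signal was well above background at 0 of the 80 spots and was a stand-in value at 48, whereas green was well above background at 53. The mean of the 10 spots was lowest at -0.54 in replicate 2, had a median of -0.26 and was highest at 0.01 in replicate 5. The mean of -0.26 ± 0.18 (SD, n = 8) was a 1.20-fold difference (limma adjusted p = 0.0235, exact sign-flip p = 0.0156) and was not called, and without replicate 3 or 4 the adjusted p was 0.0589 and 0.0580. With median-centered signals the mean was 0.74 (adjusted p = 0.0133), and no direction is given for *Lta*.

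*Ltbr*, the receptor on stromal and myeloid cells, gave strong signal in both dyes. Its probe is at chr6:125272215-125272274 (mm8, minus strand), with red signals from 1983 to 4016 (median 2671) and green signals from 1757 to 3461 (median 2468), well above background on all arrays in both dyes. The log2 ratio was lowest at -0.10 in replicate 6, had a median of 0.12 and was highest at 0.28 in replicate 8. The mean was 0.10 ± 0.16 (SD, n = 8, limma adjusted p = 0.242), with 5 mice above and 3 below the pool. Its mean turned negative with median-centered signals (-0.60) and with normexp and loess (-0.40), neither past the test.

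**Figure D3:**
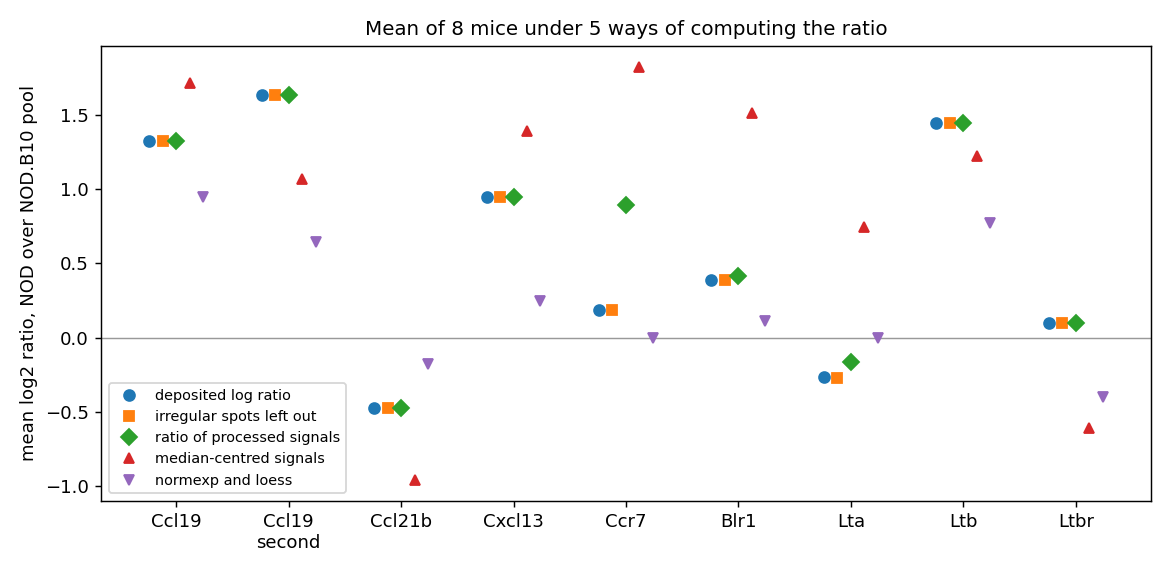
Mean log2 ratio of 8 mice (y axis) for the 9 probes (x axis) under 5 ways of computing the ratio, 1 symbol each. *Ltb*, *Cxcl13*, *Blr1* and both *Ccl19* probes stay above 0 in all 5, *Ccl21b* stays below 0, and *Lta*, *Ltbr* and *Ccr7* change sign.

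Whether these genes go together was asked across the 8 mice, over the 5 members with red signal well above background on at least 4 arrays (*Ccl19*, *Ccl21b*, *Cxcl13*, *Ltb* and *Ltbr*), which give 10 pairs. *Ccl19* and *Ltb* correlated with Pearson r = 0.92 (n = 8, exact permutation p = 0.0015, adjusted p = 0.0154 over 10 pairs) and Spearman rho = 0.93 (exact permutation p = 0.0022, adjusted p = 0.0223). With median-centered signals this r was 0.48 (adjusted p = 0.541) and with normexp and loess 0.65 (adjusted p = 0.176), neither past the test. Replicates 5 and 1 were the lowest for both genes and replicate 4 the highest. Without replicates 4 and 5, the mice farthest from the median of *Ccl19*, r was 0.83 (n = 6, exact permutation p = 0.0417). *Cxcl13* and *Ltb* correlated with r = 0.86 (n = 8, exact permutation p = 0.0069, adjusted p = 0.0344) and rho = 0.79 (exact permutation p = 0.0279, adjusted p = 0.140). Without replicates 2 and 5 this r was 0.67 (n = 6, exact permutation p = 0.168), over a narrower range of values, and with normexp and loess r was 0.76 (adjusted p = 0.140). For *Ccl19* and *Cxcl13* r was 0.77 (n = 8, exact permutation p = 0.0179, adjusted p = 0.0597) and rho 0.74 (exact permutation p = 0.0458, adjusted p = 0.153), and without replicates 4 and 5 r was 0.41 (n = 6, exact permutation p = 0.389).

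**Figure D4:**
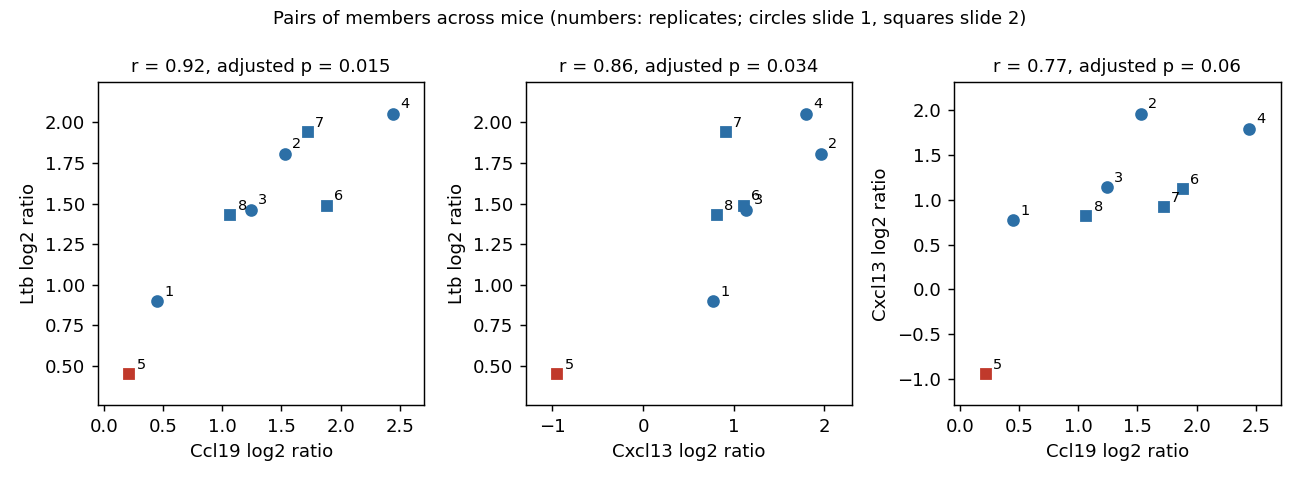
Log2 ratios of *Ccl19*, *Cxcl13* and *Ltb* against each other, 1 panel for each pair and 1 point for each mouse, numbered by replicate, with circles for slide 1 and squares for slide 2. Replicate 5 (red) is at the lower left of all 3 panels, and r is 0.92, 0.86 and 0.77.

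Replicate 5 was the lowest of the 8 mice for *Ccl19*, *Ltb* and *Cxcl13*, the last from a stand-in red value. Without it, r was 0.88 for *Ccl19* and *Ltb* (n = 7, exact permutation p = 0.0133, adjusted p = 0.133), 0.64 for *Cxcl13* and *Ltb* (n = 7, exact permutation p = 0.142, adjusted p = 0.412) and 0.62 for *Ccl19* and *Cxcl13* (n = 7, exact permutation p = 0.149, adjusted p = 0.412), and none of the 10 pairs passed. With each slide centered on its own mean, r was 0.92, 0.91 and 0.85 for these 3 pairs (n = 8, exact within-slide permutation p = 0.0052, 0.0122 and 0.0087, each adjusted to 0.0405). Within slide 1 alone they were 0.96, 0.93 and 0.82 and within slide 2 alone 0.90, 0.92 and 0.93, with 4 mice each. None of the 7 pairs with *Ccl21b* or *Ltbr* passed, and their r ranged from -0.48 (*Ccl21b* and *Ltbr*) to 0.56 (*Cxcl13* and *Ltbr*). The median r was 0.40 over the 10 pairs and -0.00023 over all 45539196 pairs of the 9544 genes that passed the same filter. Of all those pairs 3.66% had an r of at least 0.77. All ratios of a mouse share its array and its red labeling.

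No member passed a comparison of the 2 slides by the exact permutation of 4 against 4 arrays, whose smallest p is 0.0286. The largest difference was that of *Cxcl13*, with means of 1.42 ± 0.56 on slide 1 and 0.48 ± 0.95 on slide 2 (SD, n = 4 each, exact permutation p = 0.171). *Ltb* was at 1.56 ± 0.50 and 1.33 ± 0.63 (exact permutation p = 0.600) and the brighter *Ccl19* probe at 1.42 ± 0.82 and 1.22 ± 0.76 (exact permutation p = 0.743).

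Markers of lymphocytes were read in the same mice. The 6 B-cell genes had a summed red signal of 373 to 2658 across mice and a summed green signal of 574 to 752, and the log2 ratio of the sums was lowest in replicates 1 (-0.62) and 5 (-0.17) and highest in replicate 4 (1.97), and for *Ltb* and *Ccl19* the same 2 mice were the lowest and the same mouse the highest. The genes of this list with red signal well above background on at least 4 arrays were *Ms4a1*, the gene of CD20 (-1.41 to 2.77, mean 1.01, limma adjusted p = 0.206), and *Cd79b*, a chain of the B-cell receptor complex (-1.54 to 2.57, mean 1.18, limma adjusted p = 0.120). The other 4 genes of the list had red signal well above background on 0 arrays. None of the 6 B-cell genes passed an adjusted p of 0.05 (background 6.97% of genes higher), and 3 had means above 0. At an unadjusted p of 0.05, 2 of them were higher (background 10.8%). Without replicate 1, *Cd79b* passed (1.57, adjusted p = 0.0258), as it did with median-centered signals (1.21, adjusted p = 0.0076) and with normexp and loess (0.61, adjusted p = 0.0261), and *Ms4a1* passed with median-centered signals (1.10, adjusted p = 0.0244). Among the 6 T-cell genes 0 were called, 3 were higher at an adjusted p under 0.05 (5 at an unadjusted p), and the sums gave log2 ratios of 0.29 to 0.99. Over all genes 6.97% were higher at an adjusted p under 0.05 and 10.8% at an unadjusted p. Of the 6 T-cell means 5 were above 0, and *Cd8a* was at -0.12 (adjusted p = 0.547, limma). *Lck*, a kinase of the T-cell receptor, averaged 2.30 ± 1.35 (SD, n = 8; adjusted p = 0.0128, limma) and was listed as 0 in replicate 5. *Cd3d* averaged 2.07 ± 1.14 (adjusted p = 0.0101) and *Cd3e* 0.61 ± 0.31 (adjusted p = 0.0076), both chains of the T-cell receptor complex. The count of 0 called rests on the setting, since *Cd3d* was called without replicate 8 (2.45, adjusted p = 0.00082) and with slide as a covariate (2.07, adjusted p = 0.0080), and *Lck* without replicate 5 (2.63, adjusted p = 0.0078) and with red well above background on at least 4 arrays (2.30, adjusted p = 0.0028). Both were also called with median-centered signals, array quality weights and the ratio of processed signals. Red signal of *Lck* was well above background on 4 arrays and that of *Cd3d* on 3, and with normexp and loess *Lck* was at 0.26 (adjusted p = 0.0325) and *Cd3d* at 0.22 (adjusted p = 0.0493). Of the 5 dendritic cell genes 0 were called, 2 were higher at an adjusted p under 0.05 (3 at an unadjusted p), *Xcr1* (0.58, adjusted p = 0.0024) and *Itgax* (1.56, adjusted p = 0.0319), and the sums gave 0.26 to 0.91. Of their 5 means 3 were above 0, with *Zbtb46* at -0.32 (adjusted p = 0.341) and *Fscn1* at -0.19 (adjusted p = 0.700). Red signal of *Itgax* was well above background on 1 of 8 arrays, and it did not pass with normexp and loess (0.06, adjusted p = 0.321), with array quality weights (1.33, adjusted p = 0.0585) or without any 1 mouse other than replicate 2, without which it was called (1.89, adjusted p = 0.0092). The part of lymphocyte number in the ratios of *Ltb*, *Ccl19* and *Cxcl13* was not tested.

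The islet genes followed another order of mice. Their summed log2 ratio was lowest in replicates 1 (-2.06) and 2 (-1.60) and highest in replicate 7 (0.56), and none of the 5 passed an adjusted p of 0.05, with *Gcg* at -0.70 (adjusted p = 0.0844) and *Ins1* at -0.61 (adjusted p = 0.274, limma). With median-centered signals both passed (-0.84, adjusted p = 0.0114, and -1.04, adjusted p = 0.0039), as did *Gcg* with the ratio of processed signals (adjusted p = 0.0389). The acinar genes *Ctrb1* (0.54, adjusted p = 0.0390) and *Pnlip* (0.45, adjusted p = 0.0230) were higher among the 5 measured (background 6.97% at an adjusted p under 0.05), with 0 called, and their sums gave 0.02 to 0.68. With normexp and loess they were at 2.07 and 2.01.

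The other genes of the pathway were counted on 7 lists of 53 genes, of which 50 were tested. Of these, 2 were called higher, 0 were called lower, and at an adjusted p under 0.05 a total of 5 were higher and 3 lower (9 and 6 at an unadjusted p), against the backgrounds given above. Both called genes were among the 10 tested genes of organizer stroma and high endothelium. *Vcam1*, the adhesion molecule that lymphotoxin organizer cells and activated endothelium carry, was higher, at 1.13 ± 0.41 on average (SD, n = 8; adjusted p = 0.0025, limma) and 0.56 to 1.79 across mice. *Prox1*, a transcription factor of lymphatic endothelium that pancreatic cells also use, was higher, at 1.26 ± 0.56 on average (SD, n = 8; adjusted p = 0.0048, limma) and 0.56 to 2.09 across mice. Without replicate 1, 2, 3, 4 or 7 *Prox1* was not called (adjusted p of 0.0104 to 0.0158), and with normexp and loess neither gene was (0.42 and 0.21). The mouse with the highest *Prox1* was replicate 5. Other genes of lymphatic endothelium on the list did not pass, *Lyve1* at -0.06 (4 of 8 mice above 0, adjusted p = 0.954) and *Pdpn* at -0.08 (adjusted p = 0.848, red well above background on 0 arrays). *Chst4*, a sulfotransferase of high endothelial venules, was at -0.84 (adjusted p = 0.0481) and did not pass without any 1 of the 8 mice or with median-centered signals (-0.08).

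**Figure D5:**
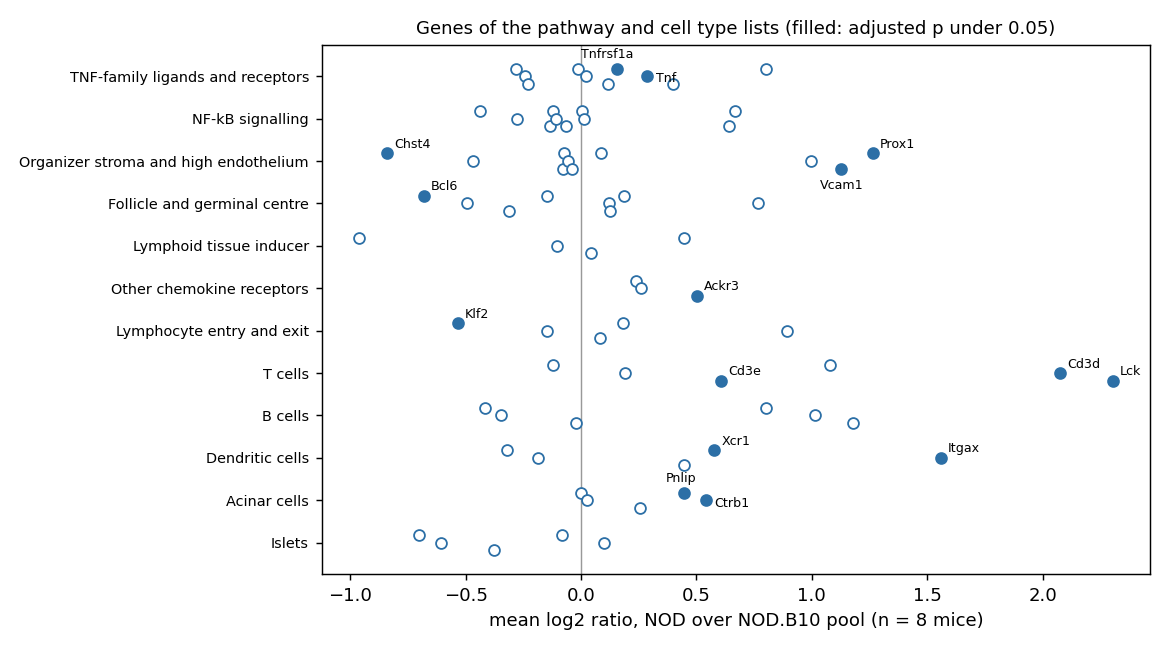
Mean log2 ratio of 8 mice (x axis) for the tested genes of 12 lists (y axis), 1 point for each gene, filled where the limma adjusted p was under 0.05. The filled T-cell points *Lck* and *Cd3d* lie farthest to the right (2.30 and 2.07), and the NF-κB, lymphoid tissue inducer, B-cell and islet lists have no filled point.

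In the list of 11 TNF-family ligands and receptors, of which 10 were tested, 0 were called and 2 were higher at an adjusted p under 0.05, as at an unadjusted p. *Tnfrsf1a*, a TNF receptor, was at 0.16 (adjusted p = 0.0154), and at -0.019 with median-centered signals and -0.011 with normexp and loess. *Tnf* was at 0.29 (adjusted p = 0.0476), but its red value was a stand-in on 8 of 8 arrays, and its mean was 2.60 with median-centered signals (adjusted p = 2.5e-07), 1.34 with the ratio of processed signals (adjusted p = 0.00092) and 0.04 with normexp and loess (adjusted p = 0.273). None of the 10 genes of NF-κB signaling was called or passed an adjusted p of 0.05 (2 higher and 1 lower at an unadjusted p). *Map3k14*, the gene of NIK, had a mean of 0.67 (limma adjusted p = 0.0575) and was above 0 in 7 mice, and without replicate 8 it was 0.87 and passed (adjusted p = 0.0027), whereas with normexp and loess it was 0.05. *Relb* had a mean of 0.64 (adjusted p = 0.100), and without replicate 6 it was 0.83 (adjusted p = 0.0256), and with median-centered signals it was -0.12.

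Follicle and germinal center genes gave 0 calls among 8 tested. *Bcl6*, the transcription factor of germinal center cells, was lower at an adjusted p under 0.05 with -0.68 (adjusted p = 0.0282, limma), and without replicate 2, 3, 6 or 8 it did not pass. With median-centered signals it was at -1.49 and with normexp and loess at -0.32, both past an adjusted p of 0.05. At an unadjusted p, 1 gene of this list was higher and 2 were lower. None of the 4 lymphoid tissue inducer genes was called, with 1 lower at an unadjusted p. *Il7r* had a mean of 0.45 (adjusted p = 0.519), and of 2.18 with median-centered signals (adjusted p = 1.4e-06), with red signal well above background on 0 arrays. Of 3 atypical chemokine receptors, *Ackr3*, a scavenger of CXCL12, was higher at 0.50 (limma adjusted p = 0.0166), with 0 called and 1 passing an unadjusted p. Of 5 genes of lymphocyte entry and exit, *Klf2*, a factor that keeps lymphocytes recirculating and endothelium quiescent, was lower in 8 of 8 mice, at -0.53 ± 0.25 on average (SD, n = 8; adjusted p = 0.0064, limma), a 1.45-fold difference, with 0 called (1 higher and 1 lower at an unadjusted p). With normexp and loess *Klf2* was at -0.36 and did not pass (adjusted p = 0.112).

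The genes whose ratios across the 8 mice were most like those of each member were found among 6188 genes with red signal well above background on all arrays, as a description without a test. For *Ccl19* they were *Igh-6*, the μ heavy chain of IgM (r = 0.98), *LOC665500* (r = 0.95) and *Myo1g*, a myosin of blood cells (r = 0.94). For *Ltb* they were *Cd52*, a surface antigen of lymphocytes (r = 0.97), *LOC665500* (r = 0.96) and *Mical1* (r = 0.96), and for *Cxcl13* they were *Ctss*, a protease of antigen-presenting cells (r = 0.98), *Psma1* (r = 0.98) and *Iigp2*, an interferon-induced GTPase (r = 0.97). *LOC665500* was on the lists of both *Ccl19* and *Ltb*, whose own ratios correlated with r = 0.92. For *Ccl21b* they were *2310045A20Rik* (r = 0.94), *Slc26a6* (r = 0.93) and *Tmem45a* (r = 0.93), and for *Ltbr* they were *Ptrf* (r = 0.95), *Nol12* and *Kcnk6* (r = 0.90 for both). No gene was shared between these 2 lists and those of the other 3 members. Each list holds only 3 of 6188 genes, so this absence sets no members apart.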

How the data were processed

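RNA from the pancreas of 8 NOD mice was hybridized by the authors against one pool of 8 NOD.B10 mice on two-color Agilent 4×44K arrays, with Feature Extraction (version 10.7.3.1) and probe positions on mm8 (NCBI36). Per the file headers, the deposited values are, per spot, a log10 ratio (NOD over pool) and the raw, background-subtracted and processed intensity of both dyes (the last one detrended and dye-normalized), with flags for background, irregular spots and stand-in values.

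These log10 ratios were put on the log2 scale and averaged over the spots of a probe. Each array is 1 mouse, and the number of arrays limits the precision. Probes with a gene symbol and red processed signal of at least 25 on at least 4 arrays (28105) entered limma's test against 0 (limma 3.58.1 in R 4.3.3), Benjamini-Hochberg adjusted, and called at 2-fold and an adjusted p under 0.01. The step was tested on simulated data. Genes with several probes are given by the brightest probe. Sign flips (256) and pairings (40320, or 576 within slides) were enumerated exactly and two-sided in Python 3.11.15 (numpy 2.4.6, pandas 2.3.3, scipy 1.17.1, matplotlib 3.10.9). Upstream windows came from RefSeq, with 7 of the 10 genes matched, and coding sequences from GENCODE. Both are on another build than the probes and no position was converted. The probe sequences were not analysed here.

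The members and the 12 lists (81 genes) were chosen with earlier results of these data known. Named genes are the members, list genes past an adjusted p of 0.05 or otherwise the 2 largest mean ratios of a list, and the 3 most correlated genes per member. *Lyve1* and *Pdpn* were named after their values were seen, and 2 genes of the lists are not reported here. Alternatives were another statistic, 2 other filters, irregular spots left out, median-centered signals, normexp (offset 50) with loess, the ratio of processed signals, slide as a covariate, array weights, leaving out each mouse, a fold of 1.5 and an adjusted p of 0.05.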

Additional observations from a re-analysis of the deposited data

Results flagged for a closer look

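In each of the 9 probes, the highest and the lowest of the 8 mice were compared with their nearest neighbor by Dixon's ratio of gap to range against its 95% critical value. Chance flags about 1 in 20 such groups, and 3 probes were flagged. *Cxcl13* in replicate 5 was far below the other mice (-0.94, Dixon ratio 0.590), where the red value was a stand-in. The *Ccl21b* probe in replicate 8 was far below the others (-1.84, ratio 0.560). *Ccr7* in replicate 1 was far above the others (1.34, ratio 0.887), of which 6 were listed as 0.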

How the results depend on the processing

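*Ltb* was the one called member in the deposited log ratio and under the plain statistic, no filter, irregular spots left out and slide as a covariate. Genes are counted here by the brighter probe, and with slide as a covariate the second *Ccl19* probe met the rule (1.63, limma adjusted p = 0.0099). The count of called members was 2 (*Ccl19* and *Ltb*) with an adjusted p of 0.05, with array quality weights, with red well above background on at least 4 arrays (fewer probes tested) and with the ratio of processed signals. It was 5 with median-centered signals (*Ccl19*, *Cxcl13*, *Ccr7*, *Blr1* and *Ltb*) and 0 with normexp and loess. With single mice left out it was 1 to 3, the 3 being without replicate 5. Reversed were *Lta* with median-centered signals (0.74, adjusted p = 0.0133), *Ltbr* with the same (-0.60) and with normexp and loess (-0.40), *Ccr7* with normexp and loess (-0.0047), *Relb* with median-centered signals (-0.12), and *Tnfrsf1a* with median-centered signals (-0.019) and normexp and loess (-0.011), *Lyve1* with array quality weights (0.14), normexp and loess (0.038) and single mice left out (-0.18 to 0.23), and *Pdpn* with median-centered signals (0.14), the ratio of processed signals (0.076) and single mice left out (-0.21 to 0.10), and the cause was not tested. Of the alternative values of single members, 132 kept direction and call, 14 gained a call and 1 lost it. The member pairs that correlated at an adjusted p under 0.05 were 2, against 1 with median-centered signals, 0 with normexp and loess and 0 to 3 with single mice left out, where 0 came without replicate 1, 4 or 5. Probes called over all genes were 484, and 308 with the plain statistic, 133 with red well above background on at least 4 arrays, 7248 with median-centered signals, 67 with normexp and loess, 4160 with the ratio of processed signals, 919 with an adjusted p of 0.05, 1109 with a fold of 1.5 and 243 to 336 with single mice left out. Among list genes, 6 passed an adjusted p of 0.05 with 8 mice and lost it without some single mouse, with adjusted p up to 0.103 for *Chst4* (any mouse), 0.106 for *Tnf* (any but replicate 5), 0.0761 for *Itgax* (any but replicate 2), 0.0886 for *Ctrb1* (replicates 3, 5, 6, 7 and 8), 0.0625 for *Bcl6* (replicates 2, 3, 6 and 8) and 0.0504 for *Pnlip* (replicate 3). *Ccr7*, *Lta* and *Blr1* were at or near background in red signal, where depth of signal limits what can be read. No paired analysis was possible because the arrays form 1 group and share one pool.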
